A study of Mus musculus with 16 samples.

Results

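The genes described here come from families known for enzymes that write or erase marks on chromatin and for proteins that read them. They were chosen by symbol, from 8 families: lysine demethylases (Kdm), lysine acetyltransferases (Kat), SET domain genes (Setd), bromodomain proteins (Brd), sirtuins (Sirt), the Ezh methyltransferases, the DNA methyltransferases (Dnmt) and the Tet dioxygenases. Of 23354 mouse gene symbols with a value in every library, 57 belonged to these families. A further symbol, Dnmt3l-ps1, matched the pattern but had no value in the 8 libraries given panobinostat and was left out. Of the 57 genes, 53 passed the filter on low counts and were tested. The others were Dnmt3l, with 0 to 13 counts per library, the Kat2b pseudogene Kat2b-ps, with 2 to 6, Kdm4d, with 0 to 2, and Kdm5d, with 0 to 4.

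AU565(pv), a HER2-positive human breast cancer line, was grown as a xenograft in a mammary fat pad of SCID mice, a strain without mature lymphocytes of the T and B lineages. Each of 4 groups held 4 mice, and every library came from its own whole tumour, harvested on day 2. Vehicle mice received D5W (dextrose in water) and PBS, trastuzumab mice received D5W and trastuzumab at 10 mg/kg, panobinostat mice received PBS and 15 mg/kg of panobinostat on day 0 and again on day 1, and combination mice received both drugs. Trastuzumab binds HER2 as an antibody, while panobinostat inhibits histone deacetylases. The labels place the trastuzumab dose on day 0 in one field and on day 1 in another. Reads were counted on mouse genes. How reads of the human tumour cells were handled is not given in the sources used here, and the share of them in the mouse counts was not measured, so the values may hold both host and tumour RNA. In whole tumours, fewer cells of a type and less RNA per cell cannot be told apart.

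Acetyltransferases place acetyl groups on histone tails, bromodomains bind them, and deacetylases, the targets of panobinostat and separately the sirtuins, remove them. Histone methylation is written by SET domain enzymes such as Ezh2 and erased by Kdm enzymes. DNA methylation is placed at CpG sites by Dnmt enzymes, copied to new strands by Dnmt1 with its partner Uhrf1, and oxidised by Tet enzymes. Panobinostat acts on the proteins that remove acetyl groups, and the counts ask whether the mouse-counted transcripts of the surrounding machinery moved with it.

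Most promoter windows of these genes were rich in CpG sites. Windows from 250 bases before to 50 bases after a transcript start, from RefSeq (build GRCm38.p6), were listed for 47 of the 57 genes, with 71 windows in all. Their median CpG count was 22 per 300-base window, against 7 over all 32851 windows, and 61 of the 71 windows (85.9%) held 10 or more, against 43.5% of all windows. The count ranged from 0 to 57. The values over all windows were not limited to the genes tested here. The sequences below are the 250 bases before a start, 5′ to 3′ on the gene's strand, with CpG sites in capitals. They show how far the starts of these genes vary in CpG content, from a dense start of Dnmt3a to sparse ones of Dnmt1, with Kat2a, an acetyltransferase gene, between them. They were picked for that spread, and none of them overlaps an annotated exon.
Dnmt3a, chr12:3806730-3806979 (+): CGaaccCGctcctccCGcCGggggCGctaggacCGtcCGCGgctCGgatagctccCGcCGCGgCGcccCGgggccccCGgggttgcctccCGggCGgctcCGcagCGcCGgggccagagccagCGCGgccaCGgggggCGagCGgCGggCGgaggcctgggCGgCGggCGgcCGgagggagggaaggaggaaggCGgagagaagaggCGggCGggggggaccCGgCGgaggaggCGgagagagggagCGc
Kat2a, chr11:100712468-100712717 (-): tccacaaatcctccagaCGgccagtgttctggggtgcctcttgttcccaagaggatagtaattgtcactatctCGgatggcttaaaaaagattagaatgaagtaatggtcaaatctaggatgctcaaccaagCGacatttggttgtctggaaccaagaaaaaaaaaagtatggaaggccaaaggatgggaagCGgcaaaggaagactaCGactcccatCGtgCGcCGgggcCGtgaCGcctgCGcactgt
Dnmt1, chr9:20952980-20953229 (-): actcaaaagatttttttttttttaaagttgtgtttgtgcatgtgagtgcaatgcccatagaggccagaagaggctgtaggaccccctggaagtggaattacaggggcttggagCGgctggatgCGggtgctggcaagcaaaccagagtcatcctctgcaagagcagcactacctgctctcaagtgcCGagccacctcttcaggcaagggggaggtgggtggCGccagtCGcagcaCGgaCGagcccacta
Dnmt1, chr9:20959889-20960138 (-): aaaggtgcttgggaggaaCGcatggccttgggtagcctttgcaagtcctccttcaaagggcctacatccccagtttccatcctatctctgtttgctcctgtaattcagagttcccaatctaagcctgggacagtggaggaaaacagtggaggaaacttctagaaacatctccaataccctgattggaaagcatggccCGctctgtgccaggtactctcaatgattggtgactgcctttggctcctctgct
The Dnmt3a stretch held 38 CpG sites and was 82.4% G and C. The Kat2a stretch held 11. The Dnmt1 stretches, which belong to 2 of its 3 listed starts, held 7 and 2. Over the full windows at all listed starts, Dnmt3a held 46, 47 and 18 and Dnmt1 held 33, 12 and 2, so the ranges of the pair overlap. The E2F-type letters TTTCCCGC, TTTGGCGC or TTTCGCGC, on either strand, occurred in 4 of the 71 windows (5.63%, against 1.84% of all windows), 1 each of Brd7, Dnmt1, Ezh2 and Sirt4. The ETS-type letters CCGGAAGT, on either strand, occurred in 6 windows (8.45%, against 3.89% of all windows), those of Kat5, Kat7, Kat8, Setd4, Sirt3 and Sirt6. No window held both groups of letters. Each of these strings of letters holds a CpG, and the shares of all windows were not matched for CpG content. The matches are of letters only, and no binding was measured.

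Total counts ran from 4848244 to 8140782 per library, and the 57 genes took 0.258% to 0.404% of them. Vehicle replicate 6 and combination replicate 22 stood apart from the rest. The summed level of the 53 tested genes was 2761 and 2739 CPM there (CPM, counts scaled to a common library total after TMM, a correction for library composition), against 3170 to 3903 CPM in the other 14 libraries. The same libraries had the lowest mouse-counted Erbb2, the gene for HER2, at 87 and 82.3 CPM, against 153 to 226 CPM elsewhere. For some of the changes that these libraries move, the value without both is given beside the value from all libraries.

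No gene of the 8 families was called in any comparison. A call was a Benjamini-Hochberg adjusted p under 0.05 in edgeR's quasi-likelihood test, adjusted over all 15610 genes tested, and comparisons used 4 libraries per group or, for a drug averaged over the other, 8 against 8. For panobinostat against vehicle 0 of 53 were called, against 0.192% of all genes, and 2 had an unadjusted p under 0.05, against 8.1% of all genes. For trastuzumab against vehicle 0 were called, against 0% of all genes, and 1 had an unadjusted p under 0.05, against 3.52%. For the combination against vehicle 0 were called, against 2.2% of all genes, and 3 had an unadjusted p under 0.05, against 13.8%. With background shares this low, 0 calls among 53 genes is near the background in each of these comparisons.

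Comparisons of the combination with each single drug gave the same count. Against trastuzumab 0 were called, against 0.628% of all genes, and 5 had an unadjusted p under 0.05, against 9.26%. Against panobinostat 0 were called, against 0% of all genes, and 0 had an unadjusted p under 0.05, against 4.48%. Panobinostat averaged over trastuzumab, which uses all 16 libraries, called 0 of the 53, against 3.02% of all genes, with 5 at an unadjusted p under 0.05, against 13.5%. Trastuzumab averaged over panobinostat called 0, against 0.147%, with 2 at an unadjusted p under 0.05, against 5.94%. The interaction of the drugs called 0, against 0%, with 0 at an unadjusted p under 0.05, against 1.79%. DESeq2 and limma voom also called 0 of the 53 in each of the 8 comparisons. Over all genes, DESeq2 called 0 for the interaction and 12 to 612 in the other comparisons. For trastuzumab against vehicle, the combination against panobinostat and the interaction, limma voom called 0 of all genes. It called 3 for panobinostat against vehicle and 11 to 428 in the rest. Where no gene was called, 0 of the 53 was fixed in advance. The 8 comparisons share groups, so their counts are not separate tests of the same point.

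The size of change that these data allow can be read from intervals. For panobinostat averaged over trastuzumab, the approximate 95% interval of the change lay within 1.5-fold in either direction for 51 of the 53 genes (96.2%), against 74.5% of all genes, and within 2-fold for all 53. For panobinostat against vehicle the counts were 47 within 1.5-fold (88.7%, against 57.4% of all genes) and 52 within 2-fold (98.1%, against 84.9%). For the combination against vehicle they were 46 (86.8%, against 54.2%) and 53 (100%, against 83.4%). The families' median gene stood at 53.3 CPM and the median of all tested genes at 22.7 CPM. Kdm8, a JmjC-domain gene counted at 5 to 22 reads per library, was the gene whose interval reached beyond 2-fold for panobinostat alone, from -1.15 to 0.33 on the log2 scale.

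The median log2 change of the 53 genes was 0.00 for panobinostat against vehicle, 0.09 for trastuzumab, 0.00 for the combination and -0.04 for panobinostat averaged over trastuzumab, where the medians of all genes were 0.01, 0.00, -0.01 and 0.00. Without the libraries that stood apart, the medians of the 53 were -0.07, 0.01, 0.01 and -0.03. For the interaction of the drugs the median was -0.08 with all libraries and 0.06 without those that stood apart. For panobinostat against vehicle, 27 of the 53 changes were positive with all libraries (50.9%, against 51.6% of all genes). Without those that stood apart 15 were positive, and no share of all genes is given there. The lowest and highest values for panobinostat averaged over trastuzumab were -0.35, of Kdm8, and 0.34, of Sirt6. In the plot of intervals the genes of each family fall on both sides of 0, except Ezh and Tet, whose few members lie on one side.

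**Figure D1:**
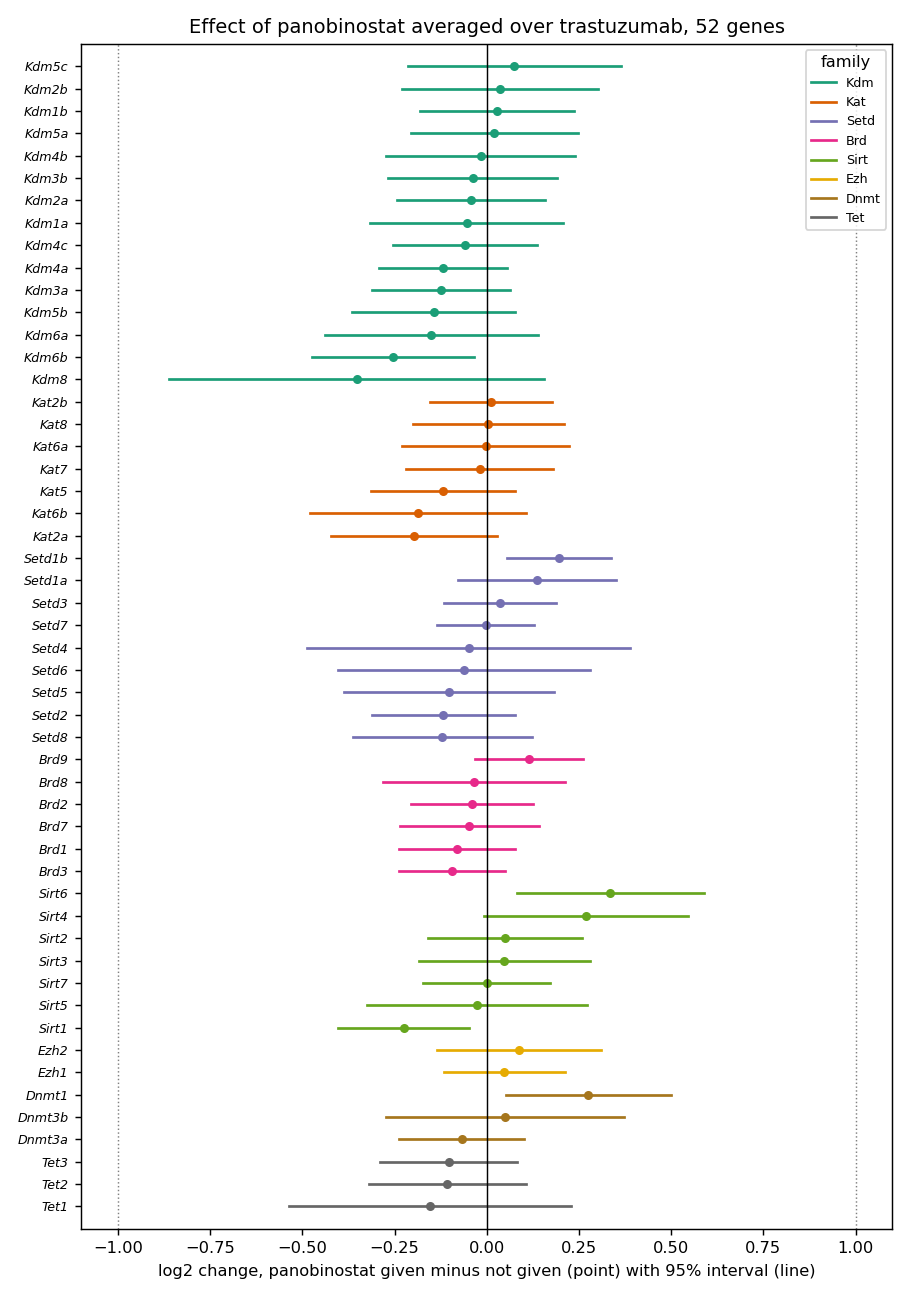
Log2 change of 52 of the 53 tested genes for panobinostat averaged over trastuzumab (point, 8 libraries against 8) with its approximate 95% interval (line), coloured by family; dotted lines mark 2-fold. Points run from -0.35 (Kdm8) to 0.34 (Sirt6), every interval lies within the dotted lines, and no gene was called.

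Among methyltransferases of histone lysine, Setd1b had the smallest p of the 53 for panobinostat, both against vehicle and averaged over trastuzumab. It encodes an enzyme that methylates lysine 4 of histone H3 and lies on chromosome 5 at 123142193 to 123168629 (mm10). In the order of mouse number within each group (vehicle 3, 6, 21 and 29, trastuzumab 12, 15, 20 and 24, panobinostat 4, 7, 8 and 13, combination 2, 11, 16 and 22), Setd1b stood at 20.7, 20, 21.9 and 19.4 CPM in vehicle tumours, 23.9, 22.5, 24 and 22.5 CPM under trastuzumab, 24.9, 25.8, 25.1 and 27.1 CPM under panobinostat and 22.6, 25.5, 26.7 and 22.2 CPM in the combination. Each treated library was above the highest vehicle library. Such separation was no more common in the families than elsewhere. Groups did not overlap for 2 of the 53 genes for panobinostat against vehicle (Setd1b and Sirt6), against 5.23% of all genes, for 1 for trastuzumab against vehicle (Setd1b), against 2.31%, for 2 for the combination against vehicle (Setd1b and Sirt4), against 7.33%, and for 2 for the combination against trastuzumab (Brd9 and Sirt1), against 5.07%. The count was 0 for the combination against panobinostat, against 2.79%, and 0 for each drug averaged over the other, against 0.801% for panobinostat and 0.0448% for trastuzumab. Panobinostat against vehicle gave a log2 change of 0.33 (95% interval 0.13 to 0.53, unadjusted p = 0.00305, adjusted p = 0.209 in edgeR), or 1.26-fold. Its log2 change was 0.24 for the combination (adjusted p = 0.246) and 0.18 for trastuzumab, where the adjusted p was 1. Its within-group spread was the lowest of the 53, at 0.08 on the log2 scale, against a median of 0.20 for the families and 0.25 for all tested genes. Averaged over trastuzumab, the log2 change was 0.19 (adjusted p = 0.162).

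The other Setd genes varied around 0. Setd2, which places the lysine 36 mark along transcribed genes, was 99.2, 79.2, 99.1 and 80.3 CPM in vehicle tumours, 89.3, 93.5, 108 and 102 CPM under trastuzumab, 86.2, 90.4, 88.8 and 80.6 CPM under panobinostat and 85.4, 92.8, 103 and 63.7 CPM in the combination. The groups overlapped, and the lowest value, 63.7 CPM, was in combination replicate 22. Setd7, a monomethylase of histone and other proteins, was 79.5, 87.7, 80.3 and 76.9 CPM in vehicle tumours, 81.2, 77.2, 77 and 82.8 CPM under trastuzumab, 75.7, 89.6, 83.5 and 77.4 CPM under panobinostat and 86.4, 77.6, 81 and 70.2 CPM in the combination. Its group means differed by less than the spread within groups, with 81.1 ± 4.63 CPM in vehicle and 78.8 ± 6.77 CPM in the combination (SD, n = 4 each). Over the 9 Setd genes, the log2 changes for panobinostat averaged over trastuzumab ran from -0.12 (Setd8, now named Kmt5a) to 0.19, with 3 positive and a median of -0.05.

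The catalytic subunits of the Polycomb repressive complex that methylates lysine 27 of histone H3 are Ezh1 and Ezh2, of which Ezh2 is the form of dividing cells. Ezh2 stood at 81.5, 52.3, 71.3 and 68.6 CPM in vehicle tumours, 59.3, 68.2, 74.9 and 71.4 CPM under trastuzumab, 80.2, 67.6, 81.9 and 66 CPM under panobinostat and 84.8, 63.1, 82.1 and 56.4 CPM in the combination. The groups overlapped throughout, with a log2 change of 0.11 for panobinostat against vehicle (95% interval -0.20 to 0.43, adjusted p = 0.942). Without the libraries that stood apart it was -0.007. Ezh1 stood at 37.2, 36, 45.5 and 46.8 CPM in vehicle tumours, 48.5, 49.2, 39.9 and 49.1 CPM under trastuzumab, 41, 44.4, 44.4 and 50 CPM under panobinostat and 43.7, 44.4, 46.3 and 49.7 CPM in the combination. Trastuzumab replicate 20, at 39.9 CPM, was below the other trastuzumab libraries, and the vehicle and treated groups overlapped. Its log2 change for trastuzumab against vehicle was 0.17 (95% interval -0.06 to 0.40, with an adjusted p of 1), and 0.105 without the libraries that stood apart.

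Among DNA methyltransferases, Dnmt1 had the highest values in 3 of the 4 combination tumours. Dnmt1 copies methylation after replication and lies on chromosome 9 at 20907209 to 20959888. Its levels were 33.4, 40.1, 43.5 and 35.6 CPM in vehicle tumours, 36.3, 51.3, 34.4 and 40.3 CPM under trastuzumab, 38.3, 47.1, 43.9 and 43.5 CPM under panobinostat and 58.1, 58, 56.4 and 37.9 CPM in the combination. The fourth combination library, replicate 22, stood at 37.9 CPM and lay among the vehicle libraries, while the others lay between 56.4 and 58.1 CPM, above every library of the other groups. The means were 38.1 ± 4.51, 40.6 ± 7.55, 43.2 ± 3.63 and 52.6 ± 9.82 CPM in vehicle, trastuzumab, panobinostat and combination tumours (SD, n = 4 each). The combination differed from vehicle by 0.46 on the log2 scale (95% interval 0.14 to 0.78, unadjusted p = 0.00683, adjusted p = 0.142) and so was not called. Without combination replicate 22 the log2 change was 0.59 and the adjusted p 0.0349, the 1 fit among those planned in which a gene of these families was called. With vehicle replicate 6 left out as well, the log2 change was 0.62 and the adjusted p 0.0555. For the combination against vehicle, fits that left out 1 library called 201 to 379 of all genes, and the main fit called 2.2%. Averaged over trastuzumab, panobinostat gave 0.27 for Dnmt1 (adjusted p = 0.227).

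Dnmt3a and Dnmt3b place new methylation, and Dnmt3l is a cofactor without activity of its own. Dnmt3a, on chromosome 12 at 3806007 to 3914443, was 77.3, 50.5, 65.4 and 63.5 CPM in vehicle tumours, 74.8, 77.6, 74.3 and 85.7 CPM under trastuzumab, 64.3, 61.2, 63.9 and 64.6 CPM under panobinostat and 69.7, 71.2, 82.1 and 63.9 CPM in the combination. Trastuzumab tumours lay at 74.3 CPM or above, and vehicle tumours below that level with the exception of replicate 3, at 77.3 CPM. The log2 change for trastuzumab against vehicle was 0.29 (95% interval 0.04 to 0.53, unadjusted p = 0.0229, with an adjusted p of 1), and it was 0.18 with the libraries that stood apart left out. Averaged over panobinostat, trastuzumab gave 0.23 for Dnmt3a (unadjusted p = 0.0112, adjusted p = 0.591). The annotation places the antisense gene Dnmt3aos over exons of Dnmt3a, and the library kit does not mark strand, so reads of the pair cannot be told apart. Dnmt3b was low, from 2.27 to 4.35 CPM (13 to 25 counts), and its groups overlapped.

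The Tet enzymes oxidise methylated cytosine. All 3 had negative log2 changes for panobinostat averaged over trastuzumab, of -0.15 for Tet1, -0.11 for Tet2 and -0.10 for Tet3, and positive ones for trastuzumab averaged over panobinostat, and none passed the test. Without the libraries that stood apart, the value of Tet1 for panobinostat was -0.02. Tet3, the highest of them per length, was 58.7, 40.4, 52.2 and 44.1 CPM in vehicle tumours, 52, 62.2, 51.8 and 58.4 CPM under trastuzumab, 42.6, 49.1, 44.8 and 45.1 CPM under panobinostat and 51.6, 58.8, 55.2 and 43.2 CPM in the combination. The trastuzumab libraries lay from 51.8 to 62.2 CPM and overlapped with vehicle. Trastuzumab averaged over panobinostat gave 0.20 for Tet3 (95% interval 0.02 to 0.39, unadjusted p = 0.0340, adjusted p = 0.794). Tet2 was 24.5, 22.8, 31.6 and 19.7 CPM in vehicle tumours, 21.7, 25.6, 26.9 and 30.7 CPM under trastuzumab, 26, 22.3, 20.4 and 20.7 CPM under panobinostat and 23.5, 25.9, 26.5 and 23.8 CPM in the combination. Its groups overlapped, with means from 22.3 ± 2.58 CPM under panobinostat to 26.2 ± 3.7 CPM under trastuzumab (SD, n = 4 each).

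**Figure D2:**
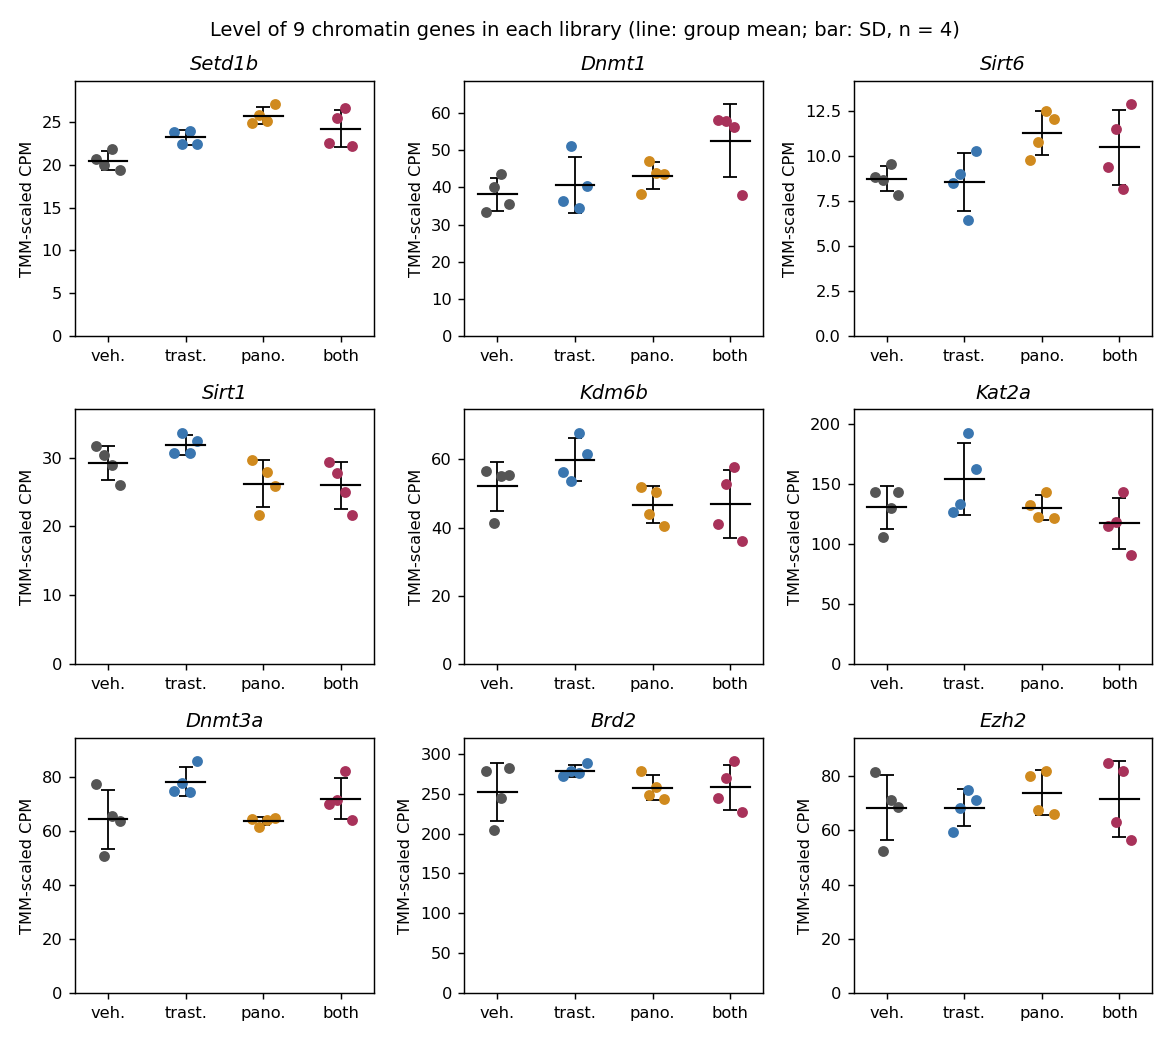
Level of 9 genes in every library (points), with group mean (line) and SD (bar, n = 4), in TMM-scaled CPM on axes that start at 0. Setd1b is higher in every treated library than in vehicle, Dnmt1 is at 56.4 to 58.1 CPM in 3 combination libraries and 37.9 CPM in the other, and the groups overlap for Kat2a, Brd2 and Ezh2.

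Sirtuins are deacylases that need NAD and are not inhibited by panobinostat. Sirt6, a nuclear sirtuin tied to DNA repair and glucose metabolism, on chromosome 10 at 81621785 to 81627797, was 8.85, 8.69, 9.56 and 7.86 CPM in vehicle tumours, 8.51, 9.02, 6.47 and 10.3 CPM under trastuzumab, 9.8, 10.8, 12.5 and 12.1 CPM under panobinostat and 9.38, 11.5, 8.19 and 12.9 CPM in the combination. Every panobinostat library was above every vehicle library, while the combination spread from 8.19 to 12.9 CPM and overlapped with both groups without panobinostat. The log2 change was 0.37 for panobinostat against vehicle (95% interval 0.01 to 0.73, unadjusted p = 0.0423, adjusted p = 0.591) and 0.34 averaged over trastuzumab (unadjusted p = 0.0126, adjusted p = 0.185). At 31 to 102 counts per library, Sirt6 was among the less deeply counted of the tested genes.

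Sirt1, the sirtuin closest to yeast Sir2 and a deacetylase of histones and transcription factors, moved the other way without passing the test. It lies on chromosome 10 at 63319005 to 63381704 and stood at 31.6, 30.4, 28.9 and 26 CPM in vehicle tumours, 30.6, 33.6, 30.7 and 32.4 CPM under trastuzumab, 29.6, 21.6, 27.9 and 25.8 CPM under panobinostat and 29.4, 27.8, 25 and 21.7 CPM in the combination. All trastuzumab libraries, from 30.6 to 33.6 CPM, were above all combination libraries, from 21.7 to 29.4 CPM. The log2 change was -0.29 for the combination against trastuzumab (95% interval -0.54 to -0.04, unadjusted p = 0.0235, adjusted p = 0.417) and -0.23 for panobinostat averaged over trastuzumab (adjusted p = 0.208). Without the libraries that stood apart, these values were -0.20 and -0.17.

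Sirt4, a mitochondrial sirtuin, was 4.63, 5.31, 4.52 and 5.55 CPM in vehicle tumours, 5.49, 5.7, 5.43 and 5.23 CPM under trastuzumab, 5.17, 5.4, 5.02 and 8.53 CPM under panobinostat and 6.47, 5.68, 6.86 and 7.35 CPM in the combination. Combination libraries were above all vehicle libraries, and panobinostat replicate 13, at 8.53 CPM, was above the other panobinostat libraries, which reached 5.4 CPM. The log2 change for the combination against vehicle was 0.39 (95% interval 0.00 to 0.78, unadjusted p = 0.0477, adjusted p = 0.355). Sirt5, a mitochondrial remover of succinyl and malonyl groups, was 7.44, 8.37, 9.21 and 8.17 CPM in vehicle tumours, 6.87, 4.27, 6.26 and 9.76 CPM under trastuzumab, 6.41, 7.25, 6.27 and 8.2 CPM under panobinostat and 8.41, 6.85, 8.19 and 7.48 CPM in the combination. Its widest spread was under trastuzumab, and its interaction of the drugs, 0.42 on the log2 scale, had an adjusted p of 1. That value was 0.28 without trastuzumab replicate 15 and 0.65 without trastuzumab replicate 24, the lowest and highest libraries of the group. Over all 7 sirtuins, 4 had a positive change for panobinostat averaged over trastuzumab, with a median of 0.05.

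Among acetyltransferases, Kat2a (also known as Gcn5) had the highest level of the 57 genes per length. It lies on chromosome 11 at 100704746 to 100712465 and stood at 144, 106, 130 and 144 CPM in vehicle tumours, 127, 134, 193 and 163 CPM under trastuzumab, 133, 123, 144 and 122 CPM under panobinostat and 115, 119, 144 and 91.5 CPM in the combination. The highest values, 193 and 163 CPM, were in trastuzumab tumours and the lowest, 91.5 CPM, in combination replicate 22, and the groups overlapped. The combination differed from trastuzumab by -0.39 on the log2 scale (95% interval -0.71 to -0.08, unadjusted p = 0.0183, adjusted p = 0.384), and by -0.28 without the libraries that stood apart. Kat2b (Pcaf), its paralog, was 49.5, 54.7, 51.5 and 44.7 CPM in vehicle tumours, 47.7, 43.4, 44.7 and 42.2 CPM under trastuzumab, 45.8, 58.7, 42.3 and 43.5 CPM under panobinostat and 47.6, 45.7, 43.6 and 53.4 CPM in the combination. The pair had log2 changes of -0.20 and 0.01 for panobinostat averaged over trastuzumab, and neither passed the test. Reads that match the Kat2b pseudogene as well could have been split from Kat2b or left uncounted. The pseudogene held at most 6 counts in a library, which does not measure such a loss.

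Kat5 (Tip60), the catalytic subunit of the NuA4 complex that acts in DNA repair, was 70.2, 53.4, 64.1 and 78.7 CPM in vehicle tumours, 67.3, 63.5, 72.4 and 68.7 CPM under trastuzumab, 74.8, 57, 71.1 and 57.9 CPM under panobinostat and 58.2, 56.8, 70.7 and 50.2 CPM in the combination. Its values overlapped in all groups, with a log2 change of -0.18 for the combination against vehicle (adjusted p = 0.612). Kat5 shares exon positions with Rnaseh2c on the opposite strand, so its reads are uncertain to that extent. Over the 7 Kat genes tested, 2 were positive for panobinostat averaged over trastuzumab, and the range was -0.20 to 0.01.

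Brd2 and Brd3, bromodomain proteins of the BET group, bind acetylated histones. Brd2 was 278, 204, 245 and 282 CPM in vehicle tumours, 272, 278, 276 and 289 CPM under trastuzumab, 279, 249, 259 and 243 CPM under panobinostat and 245, 270, 291 and 227 CPM in the combination. Its lowest values, 204 and 227 CPM, fell in the libraries that stood apart, and all groups overlapped. Its level per length was 33.4 ± 3.11 CPM per kb, and its log2 changes stayed small, with 252 ± 36.3 CPM in vehicle and 258 ± 28.3 CPM in the combination (SD, n = 4 each). Brd2 shares exon positions with the MHC gene H2-DMa on the opposite strand.

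Brd3 was 35.8, 45.4, 38.8 and 39.8 CPM in vehicle tumours, 41.3, 46.7, 41.7 and 46 CPM under trastuzumab, 38.5, 40.5, 35.8 and 34.5 CPM under panobinostat and 42.4, 40.8, 44.4 and 38 CPM in the combination. Its change for trastuzumab averaged over panobinostat was 0.14 (95% interval 0.00 to 0.29, adjusted p = 0.833). Brd9, a subunit of a SWI/SNF-type remodelling complex, was 29.2, 30.7, 28.3 and 29 CPM in vehicle tumours, 26.2, 29.3, 28.8 and 30 CPM under trastuzumab, 27.3, 28.8, 28.7 and 33.6 CPM under panobinostat and 34.1, 30, 31.4 and 36.8 CPM in the combination. Each combination library was at or above 30 CPM, and the trastuzumab libraries were between 26.2 and 30 CPM. The log2 change between these groups was 0.21 (95% interval 0.01 to 0.42, unadjusted p = 0.0427, adjusted p = 0.517).

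Of 15 tested Kdm genes, 11 had a negative log2 change for panobinostat averaged over trastuzumab and 14 had a positive one for trastuzumab against vehicle, with none called in either. Without the libraries that stood apart these counts were 10 and 8. With all libraries, 49.5% of all genes had a positive change for panobinostat averaged over trastuzumab and 50.5% for trastuzumab against vehicle. The directions of the Kdm genes rest on groups that all the genes share, and several Kdm genes vary together between libraries, as described below. Kdm6b (Jmjd3), which removes the lysine 27 mark and is known to be induced in activated macrophages, lies on chromosome 11 at 69398508 to 69413675. It stood at 56.7, 41.5, 55.1 and 55.3 CPM in vehicle tumours, 56.2, 53.8, 67.8 and 61.7 CPM under trastuzumab, 52, 44, 50.5 and 40.5 CPM under panobinostat and 41.1, 52.7, 57.9 and 36.2 CPM in the combination. It ran from 53.8 to 67.8 CPM under trastuzumab, from 40.5 to 52 CPM under panobinostat and from 36.2 to 57.9 CPM in the combination. The single drugs were not compared with each other. Panobinostat averaged over trastuzumab gave -0.25 (95% interval -0.47 to -0.03, unadjusted p = 0.0258, adjusted p = 0.268), and the same value to 2 decimals, -0.25, without the libraries that stood apart (adjusted p = 0.235). Against vehicle, where replicate 6 stood at 41.5 CPM, panobinostat gave -0.16 with these libraries and -0.26 without them, with adjusted p of 0.905 and 0.766. With the Erbb2 level of each library as a covariate, a fit added after the data were seen, the value for Kdm6b was -0.25 and the adjusted p 0.0179. For this comparison, the main fit called 3.02% of all genes. Alternatives other than leaving out 1 library called 361 to 880 of all genes. The antisense gene Kdm6bos overlaps exons of Kdm6b.

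Kdm6a (Utx), the other lysine 27 demethylase of the set, was 167, 90.7, 160 and 118 CPM in vehicle tumours, 125, 140, 144 and 173 CPM under trastuzumab, 146, 118, 143 and 107 CPM under panobinostat and 122, 119, 162 and 89.5 CPM in the combination. The lowest values, 90.7 and 89.5 CPM, fell in the libraries that stood apart. The log2 change for panobinostat averaged over trastuzumab was -0.15 (95% interval -0.44 to 0.14, adjusted p = 0.731), and against vehicle it was -0.06, or -0.21 without those libraries. Kdm1a (Lsd1), a demethylase that works with deacetylases in the CoREST complex, was 226, 125, 201 and 189 CPM in vehicle tumours, 168, 198, 196 and 221 CPM under trastuzumab, 206, 189, 192 and 164 CPM under panobinostat and 202, 156, 224 and 132 CPM in the combination. Its 2 lowest values again fell in vehicle replicate 6 and combination replicate 22. It was second per length, at 36.1 ± 5.83 CPM per kb, and its log2 change for panobinostat against vehicle was 0.02 (95% interval -0.35 to 0.39, adjusted p = 0.992), or -0.14 without them.

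The lysine 4 demethylases Kdm5a and Kdm5b behaved alike in this respect. Kdm5a was 69.6, 49.1, 72 and 61.2 CPM in vehicle tumours, 64, 73, 56.4 and 70.9 CPM under trastuzumab, 66.3, 61.9, 67.7 and 61.4 CPM under panobinostat and 70.7, 65.4, 83.3 and 47.1 CPM in the combination. Kdm5b was 82.1, 56.2, 84.7 and 62.1 CPM in vehicle tumours, 71.3, 79.3, 70.5 and 86.3 CPM under trastuzumab, 73.7, 71.5, 68.8 and 58.4 CPM under panobinostat and 69.7, 65.8, 77.7 and 50.3 CPM in the combination. Both had their lowest value in combination replicate 22, at 47.1 and 50.3 CPM, and overlapping groups. Kdm4a, which acts on lysines 9 and 36, was 38.4, 45.7, 42.1 and 46.5 CPM in vehicle tumours, 48.3, 42.9, 41.5 and 43.6 CPM under trastuzumab, 33, 43.7, 37.4 and 35.8 CPM under panobinostat and 45.9, 50.3, 40.2 and 36.2 CPM in the combination. Its lowest value, 33 CPM, was in panobinostat replicate 4. Combination replicate 22, at 36.2 CPM, was the lowest of the combination libraries. The log2 change of Kdm4a for panobinostat against vehicle was -0.21 (95% interval -0.45 to 0.04, adjusted p = 0.733). The remaining tested Kdm genes ranged from 0.896 CPM (Kdm8) to 255 CPM (Kdm5c), and the adjusted p of Kdm6b, 0.268, was the smallest of the family for panobinostat averaged over trastuzumab.

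Levels per kb of exon spanned a wide range. Kat2a (38.3 ± 6.73 CPM per kb, SD over 16 libraries), Kdm1a (36.1 ± 5.83) and Brd2 (33.4 ± 3.11) led, then Kdm5c (25.9 ± 4.72) and Kat5 (18.4 ± 2.37). Kat2a and Kdm1a, and Kdm1a and Brd2, did not differ beyond their spread, while Brd2 and Kdm5c, and Kdm5c and Kat5, did. At the low end of the tested genes stood Tet1 (0.333 ± 0.0766), Dnmt3b (0.632 ± 0.103) and Setd4 (0.726 ± 0.19). Of the 56 pairs of neighbours in this order, 46 differed by less than the larger of their SDs. Exons of 20 of the 57 genes overlap another gene, 18 of them on the opposite strand and 4 on the same strand.

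The clearest variation among these genes ran between libraries and not between groups. Vehicle replicate 6 and combination replicate 22 held the lowest value of 13 and 15 of the 53 genes, and no share of all genes is given for this. Across the 16 libraries the summed level of the 53 genes correlated with mouse-counted Erbb2 at Pearson's r = 0.957 (Spearman's rho 0.909), and at r = 0.879 without those libraries, which lie farthest from the median of Erbb2. Against the summed level of 10 adipocyte markers it was r = -0.752 (rho -0.879, and -0.723 without the 2 libraries farthest from the median), and against the 20 proliferation markers r = 0.438 (rho 0.226). These are descriptions over libraries that share a scale to a fixed total, and Erbb2 was chosen after its values were seen.

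By gene, 24 of the 53 (45.3%) had r above 0.5 with Erbb2, against 21.2% of all tested genes, and 15 had r above 0.8, led by Kdm5c (0.965), Kat7 (0.946), Setd5 (0.915) and Kdm2b (0.911). Without the 2 libraries, 20 genes were above 0.5, and no share of all genes is given there or for r above 0.8. Kdm5c removes the lysine 4 mark and Kat7 acetylates histone H3. Setd5 was 307, 180, 272 and 247 CPM in vehicle tumours, 229, 270, 320 and 324 CPM under trastuzumab, 294, 237, 263 and 215 CPM under panobinostat and 242, 232, 339 and 175 CPM in the combination. Its values of 180 and 175 CPM in vehicle replicate 6 and combination replicate 22 were the lowest, and 339 CPM in combination replicate 16, the library with the highest Erbb2, was the highest. In the other direction 4 genes (7.55%, against 21.6% of all genes) had r below -0.5, led by Sirt2 (-0.878), a mostly cytoplasmic sirtuin whose exons overlap Nfkbib. Sirt2 was 65.6, 92.4, 68 and 70.4 CPM in vehicle tumours, 69.4, 71.7, 64.3 and 67.4 CPM under trastuzumab, 68.4, 72.9, 70.2 and 83.5 CPM under panobinostat and 66.7, 77.1, 56.2 and 92.9 CPM in the combination. It peaked at 92.4 and 92.9 CPM in the same libraries in which Setd5 was lowest.

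The heat map orders the genes by this correlation, and the plot of summed levels shows the libraries.

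**Figure D3:**
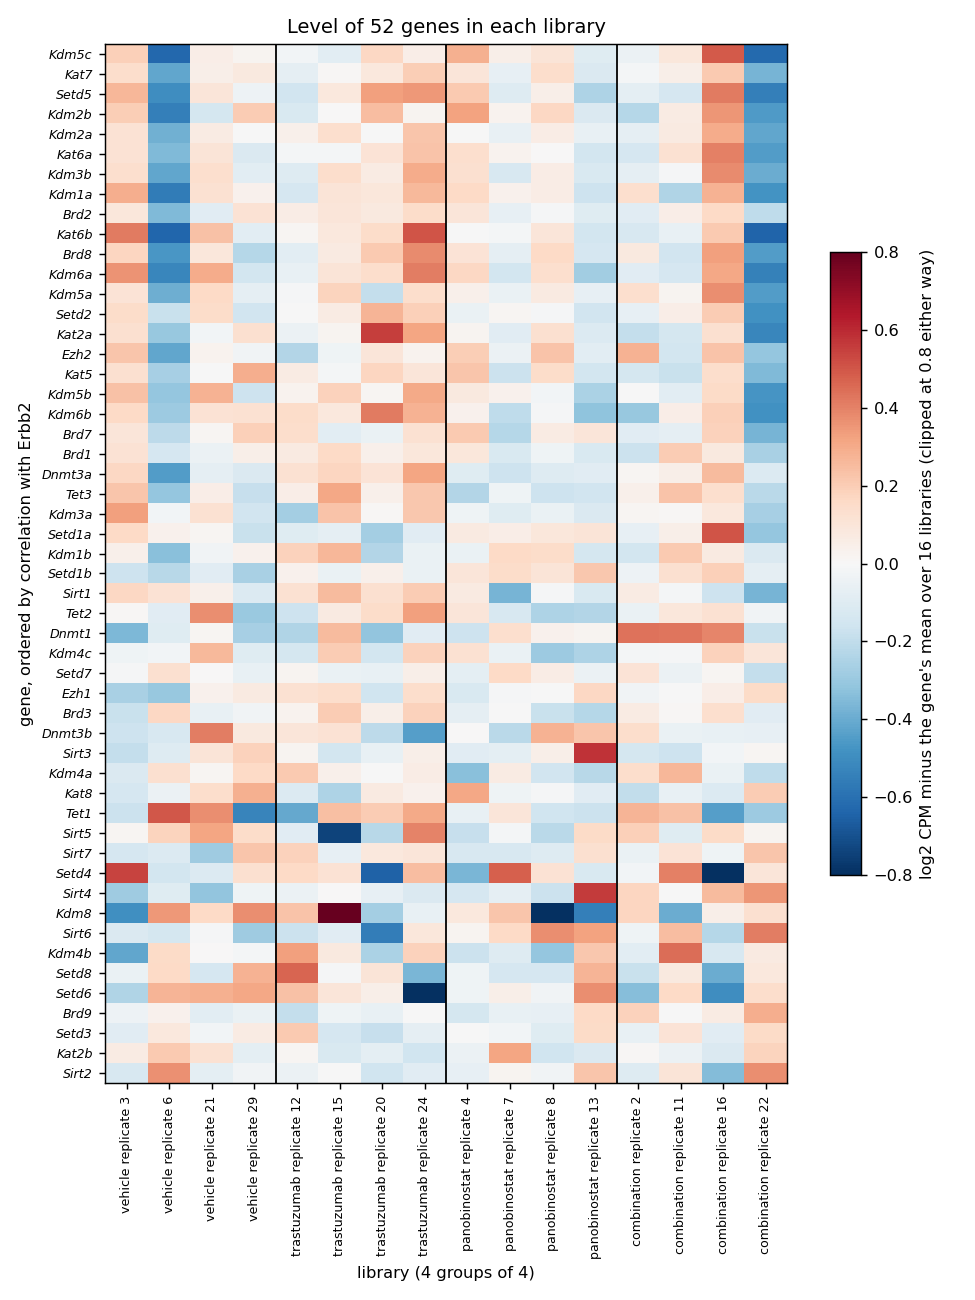
Log2 CPM of 52 of the 53 tested genes, each minus its mean over 16 libraries, with genes ordered by correlation with Erbb2 and black lines between the groups; colour is clipped at 0.8 in either direction. Blue columns in the upper part mark vehicle replicate 6 and combination replicate 22, with Sirt2 in the opposite colour in the bottom row.

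**Figure D4:**
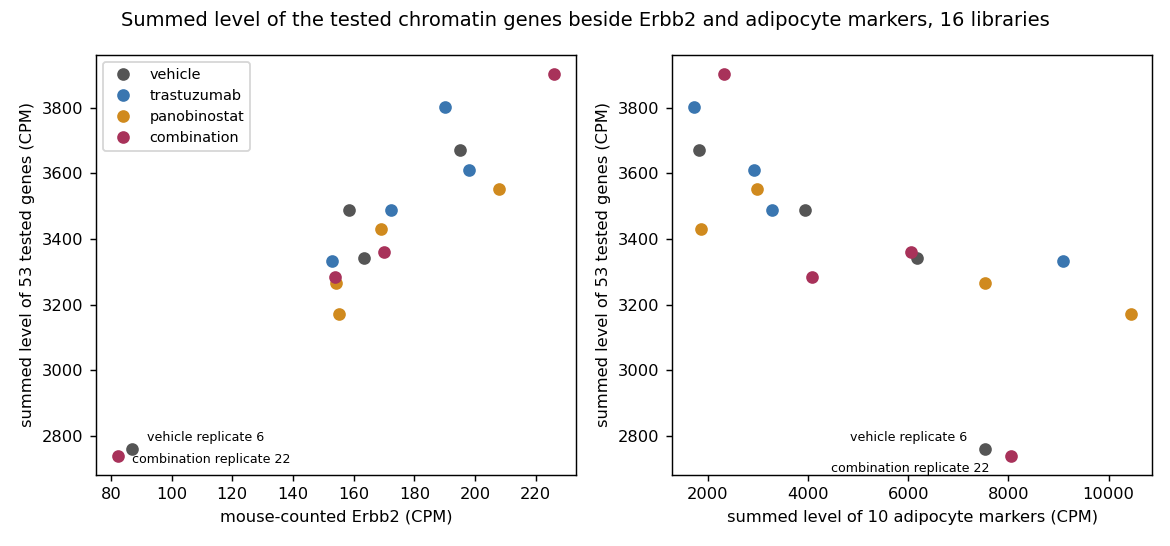
Summed level of the 53 tested genes (CPM) against mouse-counted Erbb2 (left) and the summed level of 10 adipocyte markers (right), 1 point per library, coloured by group. Vehicle replicate 6 and combination replicate 22 lie at 2761 and 2739 CPM with the lowest Erbb2, and the other libraries of each group spread over 3170 to 3903 CPM.

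The groups themselves did not separate on this sum. It was 3315 ± 393 CPM in vehicle, 3557 ± 199 CPM under trastuzumab, 3355 ± 171 CPM under panobinostat and 3322 ± 476 CPM in the combination (SD, n = 4 each), so the differences between means were smaller than the spread within the vehicle and combination groups. The 12 luminal and HER2-type genes, which a human or mouse epithelial cell would express, summed to 799 to 1084 CPM in vehicle, 1074 to 1267 CPM under trastuzumab, 866 to 1177 CPM under panobinostat and 827 to 1280 CPM in the combination. Their sum correlated with that of the 53 genes at r = 0.612 (rho 0.265) over all libraries and at 0.055 without vehicle replicate 6 and combination replicate 22, so unlike the relation with Erbb2 it rests on those libraries. The part that human reads, fat or the number of host cells have in the variation of these genes was not tested.

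Chromatin genes outside the 8 families were taken from 9 lists of 131 genes, of which 125 were tested. They covered other acetyltransferases and methyltransferases, Polycomb complexes, SWI/SNF subunits, readers of methylated CpG, JmjC genes, bromodomain genes and histone deacetylases. For the combination against vehicle 4 were called (3.2%, against 2.2% of all genes), all higher. For panobinostat averaged over trastuzumab 5 were called higher and 1 lower (4.8%, against 3.02% of all genes). Both shares are near the background. In the other comparisons 0 of the 125 were called. The 6 genes named below are all of those called.

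Uhrf1, which brings Dnmt1 to newly copied DNA, rose with panobinostat. It was 10.7, 10.6, 11.3 and 10.9 CPM in vehicle tumours, 10.6, 16, 11.7 and 10.5 CPM under trastuzumab, 16.7, 14.8, 19.5 and 15.9 CPM under panobinostat and 22.6, 21.8, 17 and 15.3 CPM in the combination. Vehicle libraries lay from 10.6 to 11.3 CPM and every library given panobinostat was above them, from 14.8 CPM up, while trastuzumab replicate 15 reached 16 CPM. The log2 change was 0.64 for panobinostat averaged over trastuzumab (SE 0.12, adjusted p = 0.00504) and 0.82 for the combination against vehicle (SE 0.16, adjusted p = 0.0113). Leaving out any 1 library of the groups compared kept both calls. Beside Uhrf1, 6 of 20 proliferation markers were called higher for panobinostat averaged over trastuzumab, against 3.02% of all genes called, namely Aurkb, Mcm3, Mcm5, Mcm6, Mcm7 and Rrm2, and all 20 had positive changes. The 20 genes summed to 567 to 821 CPM in vehicle, 574 to 814 CPM under trastuzumab, 825 to 1121 CPM under panobinostat and 721 to 1096 CPM in the combination. Each panobinostat library was thus above each library without the drug, and the combination overlapped with them. Uhrf1 is itself known as a gene of dividing cells, and the part of proliferation in its change was not tested.

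The Speckled protein genes Sp100, Sp110 and Sp140, bromodomain readers known to be induced by interferon, also rose. Sp100 was 57.9, 77.7, 52.8 and 75.8 CPM in vehicle tumours, 86.8, 75.8, 59.3 and 66.4 CPM under trastuzumab, 95.6, 119, 96.9 and 94.3 CPM under panobinostat and 96.7, 120, 89.3 and 174 CPM in the combination. Every library given panobinostat was above every other library, from 89.3 CPM up against 86.8 CPM at most, with the highest value in combination replicate 22. Groups with and without panobinostat were as separate as this in 0.801% of all genes. Sp110 was 32.4, 35.9, 22.6 and 38.4 CPM in vehicle tumours, 41.9, 35.5, 37.2 and 35.7 CPM under trastuzumab, 52.5, 47.7, 46.4 and 47.3 CPM under panobinostat and 39.6, 66.6, 41.1 and 98.3 CPM in the combination. Sp140 was 14.3, 19.1, 15.3 and 14.5 CPM in vehicle tumours, 20.7, 16.5, 16.3 and 15 CPM under trastuzumab, 22.6, 24.5, 21.1 and 21.5 CPM under panobinostat and 24.4, 27.4, 20 and 39.7 CPM in the combination. For both, a few libraries of the groups overlapped, and combination replicate 22 stood highest, as it did for Sp100.

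The log2 change for panobinostat averaged over trastuzumab was 0.68 for Sp100 (SE 0.14, adjusted p = 0.00996), 0.65 for Sp110 (adjusted p = 0.0378) and 0.60 for Sp140 (adjusted p = 0.0129). The calls of Sp100 and Sp140 held when any 1 library was left out, while that of Sp110 was lost in 11 of 16 such fits, with adjusted p up to 0.0824, and at 0.0545 without both libraries that stood apart and 0.056 in limma. For the combination against vehicle the calls were lost in 4, 6 and 5 of 8 such fits for Sp100, Sp110 and Sp140. Without combination replicate 22 the changes there were 0.62, 0.60 and 0.60 with adjusted p of 0.0669, 0.121 and 0.0562, against 0.86, 0.93 and 0.82 with it, and calls were also lost without combination replicate 11, vehicle replicate 3 or vehicle replicate 21. Related copies of this gene cluster exist in the mouse genome, and reads could be split between them.

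**Figure D5:**
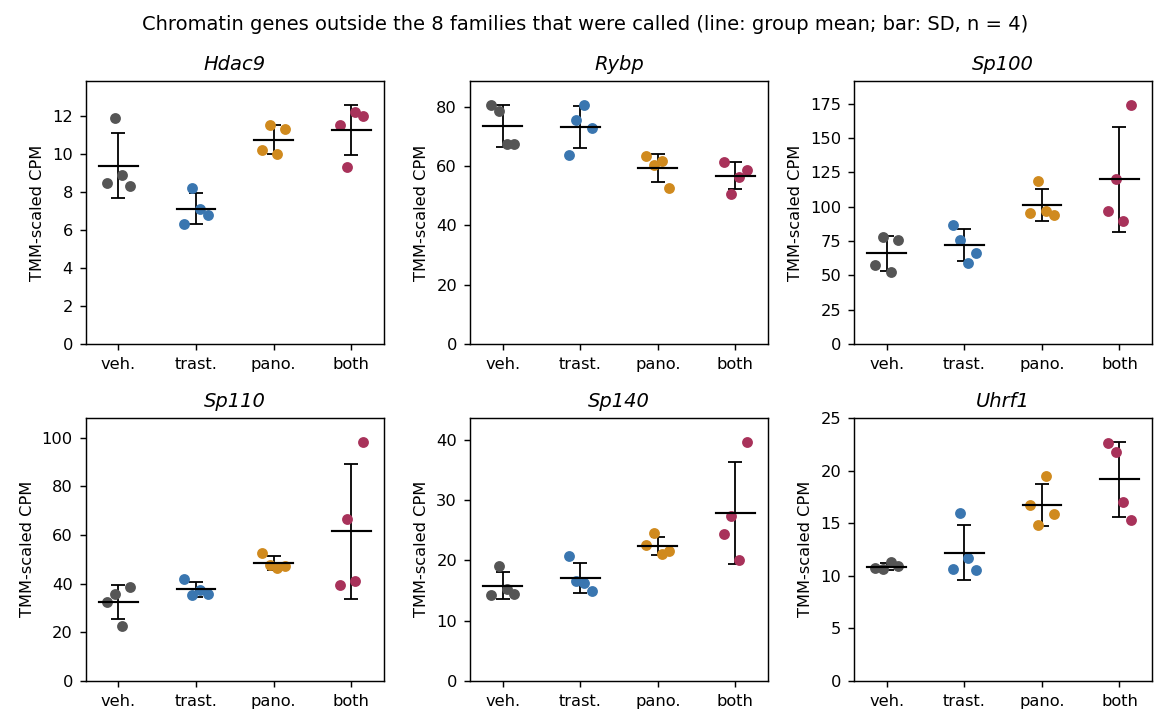
Level of the 6 called chromatin genes outside the 8 families in every library (points), with group mean (line) and SD (bar, n = 4), in TMM-scaled CPM. Libraries given panobinostat are above all vehicle libraries for Sp100, Sp110, Sp140 and Uhrf1 and below all other libraries for Rybp, and combination replicate 22 is the highest for the Sp genes.

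Rybp, a subunit of Polycomb repressive complex 1 that helps spread the ubiquitin mark on histone H2A, was the 1 gene called lower. It was 80.5, 78.7, 67.3 and 67.5 CPM in vehicle tumours, 63.9, 75.7, 80.6 and 72.7 CPM under trastuzumab, 63.4, 60.4, 61.6 and 52.7 CPM under panobinostat and 61.3, 50.7, 56.2 and 58.7 CPM in the combination. Each library given panobinostat, at 63.4 CPM or less, was below each library without it, at 63.9 CPM or more. Rybp fell by 0.34 on the log2 scale (SE 0.07, adjusted p = 0.0158), and the call held without any 1 library. The other 16 tested Polycomb repressive complex 1 genes were not called. Hdac9, a class IIa deacetylase gene, was higher by 0.43 (adjusted p = 0.0401), a call lost when any of 12 of the 16 libraries was left out, with adjusted p up to 0.0818. Hdac9 was 8.45, 11.9, 8.87 and 8.32 CPM in vehicle tumours, 6.32, 8.23, 7.1 and 6.8 CPM under trastuzumab, 10.2, 11.5, 10 and 11.3 CPM under panobinostat and 11.5, 9.32, 12.2 and 12 CPM in the combination. Vehicle replicate 6, at 11.9 CPM, lay among the libraries given panobinostat. Ezh2's own partners in Polycomb repressive complex 2, 9 genes tested, held 0 calls.

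Markers of several cell types moved in the same comparison as these genes, panobinostat averaged over trastuzumab, in which 3.02% of all genes were called. Of 5 tested erythroid markers 5 were called lower, with a median log2 change of -2.01 and sums of 242 to 1128 CPM in libraries without panobinostat and 78.8 to 206 CPM in those with it. Of 7 tested neutrophil markers 5 were called lower (median -0.76), with sums of 171 to 275 CPM without the drug and 118 to 171 CPM with it. Of 10 fibroblast markers 2 were called lower, Col1a2 and Fap, and none had a positive change (median -0.37). In the other direction, 1 of 11 tested macrophage markers, Fcgr1, and 1 of 8 NK cell markers, Klrk1, were called higher, by 0.72 and 1.30 on the log2 scale. The macrophage list had 7 of 11 changes positive (median 0.08) and the NK cell list 6 of 8 (median 0.15). No endothelial, dendritic cell, adipocyte, mast cell, muscle, luminal or T and B cell marker was called there. The part of these cells in the changes of Uhrf1, the Sp genes, Rybp and Hdac9 was not tested.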

How the data were processed

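For the 16 libraries, the authors deposited raw counts of reads by mouse gene symbol in 1 table. Per the submitters' processing notes, CASAVA 1.8.2, TopHat2 and HTSeq were used with build mm10. Their settings, the gene annotation and how human reads were handled are not given in the sources. The TruSeq kit named in the labels' protocols does not mark strand.

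Of 24681 symbols, 1327 had a dot in place of a count in 8 libraries and were left out. Counts were fitted with edgeR 4.0.16 in R 4.3.3 (quasi-likelihood F test, TMM, filterByExpr) in 1 fit of all 16 libraries with 1 mean per group. This left 15610 genes, with a common biological coefficient of variation of 0.183. Standard errors, taken as the absolute log2 change over the square root of F, and the 95% intervals built on them are approximate. Levels are TMM-scaled CPM, and levels per kb divide by exon length in GENCODE M21 (GRCm38). The script was tested on simulated counts. DESeq2 1.42.0 and limma 3.58.1 were alternatives, as were other scaling, filtering, sample sets and each library left out. Nothing in the labels says that mice were handled in batches.

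The genes, lists and comparisons were chosen with earlier results of these data known. Library values are given for every called chromatin gene, for the 3 genes of the families with the smallest p in each comparison and for 18 genes always included, of which 1 is not reported here; Setd5 and Sirt2 were added after their values were seen.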

Additional observations from a re-analysis of the deposited data

Results flagged for a closer look

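Among 108 groups of 4 library values, of the named genes, 4 held 1 library far from the rest by Dixon's test. Chance gives about 1 in 20. Dnmt1 stood at 37.9 CPM in combination replicate 22, against 56.4 to 58.1 CPM in the other combination libraries. Kdm6b stood at 41.5 CPM in vehicle replicate 6, against 55.1 to 56.7 CPM in the other vehicle libraries. These are the libraries with the lowest Erbb2 and the lowest summed level of the families. Ezh1 stood at 39.9 CPM in trastuzumab replicate 20, against 48.5 to 49.2 CPM. Sirt4 stood at 8.53 CPM in panobinostat replicate 13, against 5.02 to 5.4 CPM.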

How the results depend on the processing

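The count of genes of the 8 families called was 0 in 139 of 141 alternatives. Part of these could give no other count. For the interaction, no gene at all was called in any alternative. The same held with 1 library left out for trastuzumab against vehicle and for the combination against panobinostat. For the combination against vehicle, fits that left out 1 library called 0 to 1 gene of the families (Dnmt1 without combination replicate 22). Those fits called 201 to 379 of all genes. With the Erbb2 level as a covariate, added after the data were seen, the count was 1 for panobinostat averaged over trastuzumab (Kdm6b). Alternatives of that comparison other than leaving out 1 library called 361 to 880 of all genes. Of 797 alternatives for 41 named changes, 777 kept direction and side of the threshold, 2 newly passed it, as given above, and 18 changed sign, all for panobinostat averaged over trastuzumab in 5 genes with changes near 0. Setd7 (-0.003) became 0.043 without both vehicle replicate 6 and combination replicate 22, 0.003 with no low-count filter and 0.024 with total-count scaling, and Ezh1 (0.05) became -0.003 without both libraries. Leaving out 1 library gave 0.015 to 0.080 for Ezh1, -0.040 to 0.044 for Kat2b, -0.129 to 0.008 for Kdm1a, -0.044 to 0.088 for Kdm5a and -0.028 to 0.023 for Setd7. The cause was not tested.

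Counts over all genes moved more. Against main values of 30 for panobinostat, 343 for the combination, 98 for the combination against trastuzumab, 471 for panobinostat averaged over trastuzumab and 23 for trastuzumab averaged over panobinostat, leaving out 1 library gave 3 to 12, 201 to 379, 3 to 179, 329 to 480 and 2 to 33. Other alternatives gave 3 to 172, 123 to 699, 2 to 219, 361 to 880 and 5 to 59. For trastuzumab against vehicle and for the combination against panobinostat, where edgeR called 0, other alternatives gave up to 12 and 14. No paired analysis was possible because every mouse number occurs once. Depth limits Kdm8, Setd4 and Dnmt3b most, and the 4 untested genes cannot be compared.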
